A study of Mus musculus with 20 samples.

Results

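The 34 genes described here are genes of red cell precursors, measured in mouse splenic B cells of 2 genotypes. They were taken from a list of erythroid genes and kept where the array had a probe set for them. The list was chosen with earlier results of these data known. Member counts set beside the share of all genes therefore describe these genes and do not test the list. All 34 had 1, out of 19938 genes with a probe set, and 32 of the 34 passed the filter on dim probe sets (a log2 value of at least 7.45, the median of the table, in at least 2 arrays), out of 11968 genes that passed it in all. Trim10 and Tspan8 did not pass it. A filter of this kind admits a gene through the group in which it is bright: 20 of the 34 passed on the wild type arrays alone, and counts for those 20 are given beside most of the counts for all members.

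Red cells form in stages, from progenitors that depend on erythropoietin through nucleated precursors to the reticulocyte, which has lost its nucleus. In the precursors a set of transcription factors including GATA1, TAL1 and KLF1 acts together on genes for hemoglobin, heme synthesis, iron delivery to mitochondria, and the membrane skeleton that gives the red cell its shape. The mouse spleen, unlike the adult human spleen, holds such precursors throughout life and expands them under stress. They are not of the B lineage.

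The study followed gene expression after stimulation of the B cell receptor. Splenic B cells of C57BL/6 mice were purified by magnetic removal of cells bearing CD43 and cultured in RPMI with serum, and total RNA was measured on 20 Affymetrix gene arrays. The wild type cells carry mb-1 with intact TAK1 alleles (mb-1/TAK1+/+), and the TAK1-deleted cells carry mb-1 with floxed alleles (mb-1/TAK1f/f), a deletion driven in the B lineage. TAK1 is the kinase encoded by Map3k7, which links the B cell receptor to NF-κB and MAP kinase signalling.

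Each genotype was sampled unstimulated (0 h) and at 1, 3, 6 or 24 h after adding 10 µg/ml of anti-IgM, which is an antibody to the receptor's chain that cross-links it, with 2 arrays in each of the 10 groups. Mice of both sexes, aged 8 to 12 weeks, were used. Because mb-1 acts in B lineage cells, it is not designed to delete the alleles in any other cell of the preparation. Nothing in the labels says whether the 2 arrays of a group came from separate mice or cultures, so a p-value is set against a spread that may be technical, and nothing says whether the 0 h cells had been in culture. No group was kept without anti-IgM after 0 h, so anti-IgM and time in culture cannot be told apart. In bulk RNA, fewer cells of a type and less RNA per cell cannot be told apart.

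Arrays of a group correlated with r of 0.979 to 0.994 across the tested genes, which are not independent replicates. The Map3k7 probe set did not separate the genotypes: it read 10.16 to 10.71 in the wild type arrays and 10.4 to 10.76 in the TAK1-deleted arrays (adjusted p = 0.721 at 0 h, limma), and the deleted part of the gene is not known to lie under it, so it does not check the labels. Y-linked genes were lower in the TAK1-deleted arrays (Eif2s3y, -4.77 ± 0.31, and Uty, -3.19 ± 0.23, on the log2 scale at 0 h). Over all times Eif2s3y read 4.63 to 4.89 in the TAK1-deleted arrays and 8.32 to 9.82 in the wild type arrays. Uty read 5.16 to 5.39 against 7.56 to 8.8. This difference ran with genotype in every array, so sex and genotype cannot be told apart, and its part in the results was not tested. The defining genes of the labelled B cell type were bright in both genotypes (Cd79a with means of 13.69 and 13.46, Ms4a1 with 13.24 and 13.21 in wild type and TAK1-deleted cells), and of 14 tested pan B cell genes 0 were called by limma at 0 h, with 1 at an unadjusted p below 0.05. That 0 is near the 2.32% of all tested genes called at 0 h.

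Because most members were higher in TAK1-deleted cells at 0 h, the 250 bases before their start sites are shown for 1 member of each role: the one with the largest difference at 0 h that has a window in the RefSeq promoter table (GRCm38.p6). The GATA letters (on either strand, AGATAA or its variant AGATAG, and TGATAA or its variant TGATAG) and the CACC letters (CCACNCCC on either strand, a box of the kind that KLF1 binds) are in capitals. Each sequence runs 5′ to 3′ towards the start of its gene.
Kel, chr6:41704326-41704575 (minus strand): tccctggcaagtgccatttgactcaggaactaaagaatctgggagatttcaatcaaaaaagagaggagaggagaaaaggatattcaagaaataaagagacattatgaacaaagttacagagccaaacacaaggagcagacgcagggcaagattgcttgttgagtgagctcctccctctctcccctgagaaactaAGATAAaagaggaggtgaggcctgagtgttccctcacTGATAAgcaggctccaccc
Rhag, chr17:40810899-40811148 (plus strand): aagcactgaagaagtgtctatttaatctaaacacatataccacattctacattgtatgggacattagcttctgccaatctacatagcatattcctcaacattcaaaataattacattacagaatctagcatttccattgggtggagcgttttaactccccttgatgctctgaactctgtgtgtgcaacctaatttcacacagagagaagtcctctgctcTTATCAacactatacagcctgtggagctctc
Alas2, chrX:150547167-150547416 (plus strand): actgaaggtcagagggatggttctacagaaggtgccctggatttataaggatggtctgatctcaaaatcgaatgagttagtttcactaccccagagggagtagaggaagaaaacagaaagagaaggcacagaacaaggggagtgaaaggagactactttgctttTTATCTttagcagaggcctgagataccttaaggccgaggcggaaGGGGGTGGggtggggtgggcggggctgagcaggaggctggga
Gfi1b, chr2:28621983-28622232 (minus strand): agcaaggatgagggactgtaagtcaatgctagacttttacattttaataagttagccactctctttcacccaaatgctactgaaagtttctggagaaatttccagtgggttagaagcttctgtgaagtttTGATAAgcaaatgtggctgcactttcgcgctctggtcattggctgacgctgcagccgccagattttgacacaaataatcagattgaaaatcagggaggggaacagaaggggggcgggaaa
Tspan33, chr6:29693964-29694213 (plus strand): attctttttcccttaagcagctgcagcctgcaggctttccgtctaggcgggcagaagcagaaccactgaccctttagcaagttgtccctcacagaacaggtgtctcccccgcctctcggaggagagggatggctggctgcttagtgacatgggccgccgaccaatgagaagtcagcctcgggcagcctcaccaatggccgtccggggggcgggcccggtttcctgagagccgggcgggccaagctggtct

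The Kel window holds the GATA letters in 2 places, those of Rhag, Alas2 and Gfi1b in 1 place, and that of Tspan33 in 0. Alas2 also holds the CACC letters in 1 place. The table has 28 windows for 25 of the 34 members, and 17 of the 28 (60.7%) hold the GATA letters at least once, against 26.5% of all 32851 windows. The CACC letters occur in 8 of the 28 (28.6%) and in 15.9% of all windows. A match describes these letters only, and the absence of one says nothing of the factor.

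The difference between the genotypes was measured before stimulation. At 0 h 25 of the 34 members were higher in TAK1-deleted than in wild type cells, against 1.5% of all tested genes called higher. Lower were 0 members, which is near the 0.819% of all tested genes called lower. Of the 20 members that passed on wild type arrays alone 15 were called. With no filter 27 of the 34 were called and the median difference over all 34 was 1.27 on the log2 scale, while the median over all genes tested was 0.01. A call means an adjusted p (Benjamini-Hochberg over all 11968 genes) below 0.05 in limma's fit, and changes are log2 differences ± standard error with 2 arrays a group. Of the 25 calls 19 held with each array left out in turn. The other 6 were Abcb10, Car1, Dmtn, Epor, Fech and Tal1, and all 6 were lost without TAK1-deleted 0 h replicate 1, which was the higher of its pair in 28 of the 34 members (by a median of 0.26).

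The arrays of the genotypes did not overlap at 0 h in 31 of the 32 tested members, with TAK1-deleted above wild type in each, against 14.4% of all tested genes. With 2 arrays a group this is a weaker criterion than a call.

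Among the 10 genes of the membrane and its skeleton, 8 were higher at 0 h. Slc4a1 encodes band 3, the anion exchanger that anchors the skeleton to the membrane. It read 7.17 and 7.63 in the wild type arrays and 10.56 and 10.03 in the TAK1-deleted arrays, a difference of 2.89 ± 0.22 or 7.42-fold (adjusted p = 8e-07). The groups lay far apart, and all TAK1-deleted arrays at 0 and 1 h stood above every wild type array at any time. Kel, the metalloprotease of the Kell blood group, read 7.18 and 7.01 against 9.69 and 8.94, a difference of 2.22 ± 0.23 (adjusted p = 2.96e-05). Its TAK1-deleted replicates were themselves further apart than those of most members. Ermap, a membrane protein of erythroid cells, read 8.24 and 8.32 against 10.42 and 10.17 (2.02 ± 0.18, adjusted p = 4.66e-06).

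The skeleton genes followed with smaller differences. Ank1, the ankyrin that joins band 3 to spectrin, read 7.83 and 8.04 in wild type and 9.79 and 9.62 in TAK1-deleted cells (1.77 ± 0.14, adjusted p = 8e-07). The band 3 partner Epb42 was higher by 1.51 ± 0.19, β-adducin (Add2) by 1.41 ± 0.13 and β-spectrin (Sptb) by 1.34 ± 0.19. Dematin (Dmtn), an actin-bundling protein, was higher by 0.84 ± 0.17 (adjusted p = 0.0101), with adjusted p of up to 0.187 when 1 array was left out.

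The remaining membrane genes, Icam4 and Xk, were not called. Icam4, an adhesion molecule of red cells, read 6.79 and 7.10 against 7.43 and 7.33 (0.44 ± 0.14, adjusted p = 0.182), and Xk, which is linked to the Kell protein at the surface, read 9.08 and 8.51 against 9.67 and 9.23 (0.65 ± 0.27, adjusted p = 0.407). With the replicate number as a block both were called (adjusted p = 0.0419 and 0.0011).

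All 6 genes of transport and gas exchange were higher at 0 h. Rhag, the Rh-associated glycoprotein that carries ammonia across the membrane, read 6.98 and 6.53 in wild type and 10.27 and 9.67 in TAK1-deleted arrays, a difference of 3.21 ± 0.31 or 9.28-fold (adjusted p = 1.43e-05), the largest fitted difference of the 32 tested members. Its partner in the Rh complex, Rhd, read 6.76 and 6.94 against 9.51 and 9.11 (2.46 ± 0.16, adjusted p = 2.35e-07). Both wild type levels lie under the filter's threshold, and RMA does not subtract background to 0, so these folds may be understated.

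The water channel Aqp1 read 8.02 and 7.94 against 10.55 and 10.19 (2.39 ± 0.18, adjusted p = 8e-07). Car2, a carbonic anhydrase, read 9.55 and 9.66 against 11.93 and 11.91 (2.31 ± 0.19, adjusted p = 1.49e-06). The amino acid transporter Slc38a5 was higher by 1.86 ± 0.31 (adjusted p = 0.00231).

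Car1, the other carbonic anhydrase of red cells, was bright in both genotypes. It read 12.02 and 12.01 in wild type and 13.40 and 13.13 in TAK1-deleted arrays (1.25 ± 0.21, adjusted p = 0.00306, and 0.0523 without TAK1-deleted 0 h replicate 1). It was the transport gene with the smallest difference at 0 h.

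Of the 5 genes of heme synthesis and mitochondrial iron, 3 were higher. Alas2, the first enzyme of heme synthesis in erythroid cells, read 6.96 and 7 against 8.11 and 8.08 (1.12 ± 0.16, adjusted p = 0.000537). Ferrochelatase (Fech), which inserts iron into the ring, read 8.86 and 8.55 against 9.50 and 9.54 (0.82 ± 0.17, adjusted p = 0.0151), and Abcb10, a transporter of the inner mitochondrial membrane, read 8.25 and 8.12 against 9.29 and 8.70 (0.81 ± 0.17, adjusted p = 0.0176). Without 1 array the adjusted p rose to as much as 0.176 for Fech and 0.281 for Abcb10.

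The mitochondrial carriers Slc25a37 and Slc25a38 showed no call. Slc25a37, or mitoferrin-1, the iron importer, read 11.45 and 10.95 against 11.61 and 11.30, and these groups overlapped (0.26 ± 0.18, adjusted p = 0.974). Slc25a38, which brings glycine to heme synthesis, read 10.19 and 10.06 against 10.57 and 10.21 (0.27 ± 0.16, adjusted p = 0.802).

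Of the 7 genes that encode transcription factors or the receptor, 6 were higher. Gfi1b, a zinc finger repressor needed for erythroid and megakaryocyte development, read 8.64 and 8.81 in wild type and 10.74 and 10.60 in TAK1-deleted arrays (1.95 ± 0.17, adjusted p = 4.02e-06). Gata1, the master regulator of the lineage, read 7.08 and 7.23 against 8.84 and 8.55 (1.54 ± 0.18, adjusted p = 0.000123). Klf1, which drives the globin and membrane genes, read 7.30 and 7.55 against 8.99 and 8.45 (1.29 ± 0.20, adjusted p = 0.00118). In each of these the groups were well apart.

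Hemgn, a nuclear protein of erythroid cells, was higher by 1.62 ± 0.17, and the erythropoietin receptor Epor by 1.04 ± 0.17 (adjusted p = 0.00284, and up to 0.0643 with 1 array left out). Tal1 was higher by 0.77 ± 0.17 (adjusted p = 0.0187, and up to 0.274). Nfe2, whose product binds globin control regions and is also central in megakaryocytes, read 8.03 and 8.11 against 8.12 and 8.16, the smallest fitted difference of the tested members (0.07 ± 0.12, adjusted p = 0.999).

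Cldn13, a claudin of mouse erythroid cells, read 6.30 and 6.43 in wild type and 9.51 and 9.39 in TAK1-deleted arrays (3.09 ± 0.23 or 8.49-fold, adjusted p = 8e-07). Tspan33, a tetraspanin of erythroid progenitors that activated B cells also carry, read 8.27 and 8.11 against 9.52 and 9.05 (1.10 ± 0.17, adjusted p = 0.00158).

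Trim58, a ubiquitin ligase of late erythroblasts, gave 0.44 ± 0.12 (adjusted p = 0.0727), and Tmcc2 gave 0.40 ± 0.12 (adjusted p = 0.0977), and both were called with the replicate block (adjusted p = 0.0196 and 0.0303). Trim10 ranged from 5.91 to 7.12 over the 20 arrays and Tspan8 from 5.63 to 6.47, both under the threshold throughout. In the fit without a filter both were higher at 0 h, by 0.99 ± 0.17 and 0.58 ± 0.09 (adjusted p = 0.00345 and 0.00185).

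**Figure D1:**
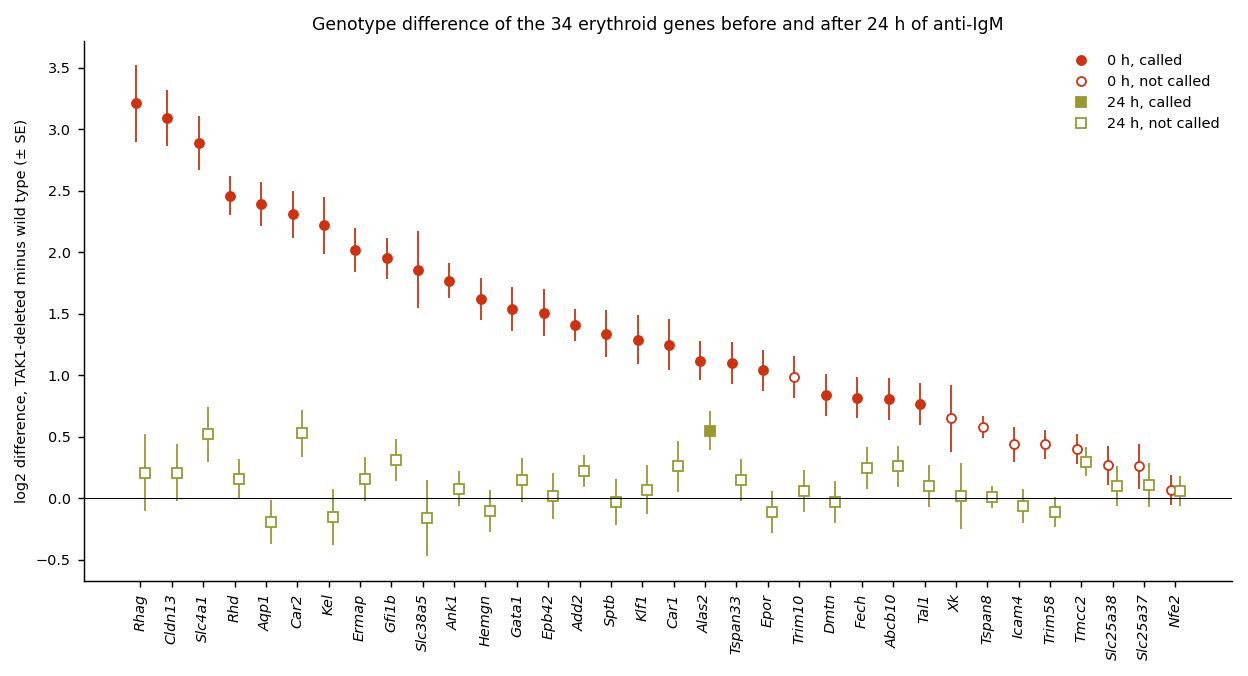
Log2 difference (TAK1-deleted minus wild type) ± SE of each of the 34 members at 0 h (circles) and 24 h (squares), ordered by the value at 0 h, with filled symbols for calls. At 0 h 25 are called and at 24 h only Alas2 (0.55); Trim10 and Tspan8 are drawn open, with values from the fit without the filter.

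The number of members called fell over the hours of anti-IgM, for which there was no untreated culture of the same age. At 1 h 25 of 34 members were higher in TAK1-deleted cells (2.07% of all genes), at 3 h 19 (1% of all genes), at 6 h 13 (0.927% of all genes) and at 24 h 1 (7.04% of all genes), with 0 lower at any time by limma. Of all genes 2.21%, 1.7%, 1.6% and 5.18% were lower at 1, 3, 6 and 24 h, so 0 lower members is near those shares. Without the adjustment 0 members reached a p below 0.05 in the lower direction at any of the 5 times. Of the 20 members that passed on wild type alone, 14, 11, 9 and 0 were called at 1, 3, 6 and 24 h. The unfiltered median over all 34 members went from 1.34 at 1 h to 0.76 at 3 h, 0.49 at 6 h and 0.10 at 24 h, while the median of all tested genes stayed between 0 and 0.03.

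The counts at 3 and 6 h were smaller whichever single array of that time was left out. At 3 h the count was 12 without wild type 3 h replicate 1. At 6 h it was 7 without either wild type array and 8 without either TAK1-deleted array of that time, and 5 members were called in all of these fits: Slc4a1, Ank1, Car1, Aqp1 and Cldn13. The single call at 24 h, Alas2 (6.75 and 7.22 against 7.65 and 7.41, 0.55 ± 0.16, adjusted p = 0.0329), was lost without wild type 24 h replicate 1 and without either TAK1-deleted array (adjusted p of up to 0.393). With the replicate block 3 members were higher at 24 h, Alas2, Slc4a1 and Car2 (14.7% of all genes with the block).

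At 6 h some members were called and others not, and no test compared members with each other. Slc4a1 still differed by 2.04 ± 0.22 at 6 h (7.26 and 7.18 against 9.34 and 9.17, adjusted p = 6.46e-05), and Car1 by 2.24 ± 0.21 (8.32 and 8.04 against 10.70 and 10.15, adjusted p = 2.62e-05). These compare with 2.89 and 1.25 at 0 h, and neither shift was called by the interaction test (adjusted p = 0.367 and 0.211, and 0.0167 for Car1 with the replicate block). Gata1 read 7 and 7.22 against 7.93 and 7.59 already at 3 h (0.65 ± 0.18, adjusted p = 0.0848) and 6.78 and 6.82 against 7.25 and 7.23 at 6 h (0.44 ± 0.18, adjusted p = 0.312). Epor and Sptb were likewise not called at 6 h (0.23 ± 0.17 and 0.46 ± 0.19).

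**Figure D2:**
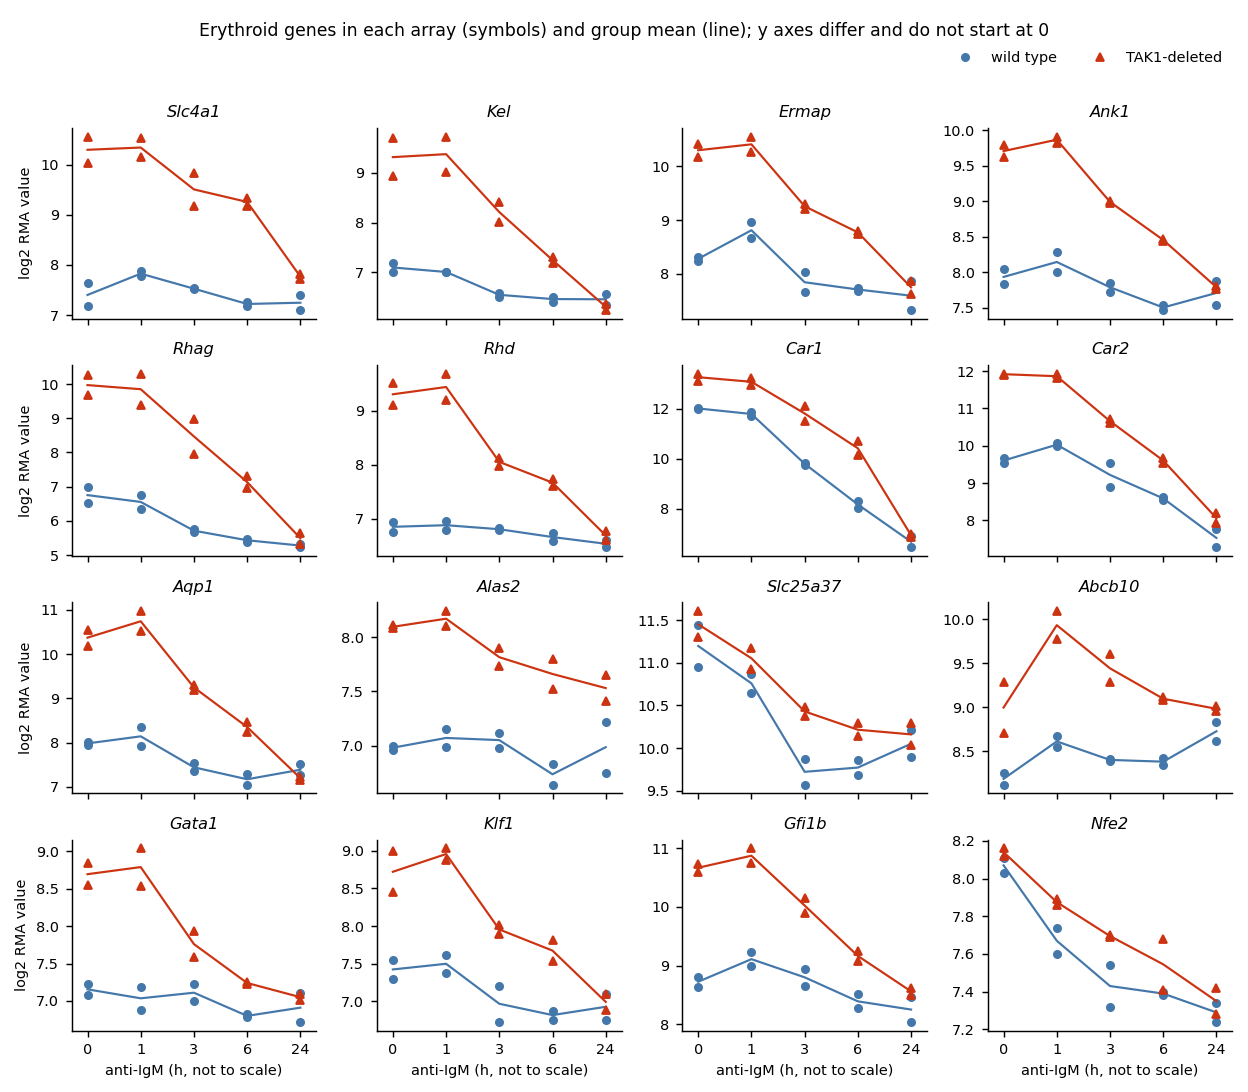
Log2 RMA values of 16 members in each array (circles for wild type, triangles for TAK1-deleted) against hours of anti-IgM, with lines through group means and a separate y axis for each gene. Most members start high in TAK1-deleted cells and lie near the wild type arrays at 24 h (Slc4a1 goes from 10.56 and 10.03 to 7.81 and 7.72, with wild type at 7.10 and 7.39), while Car1 falls in both genotypes and Nfe2 runs close in both.

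In wild type cells 3 members changed by 1 h. At that time 2 of the 34 members were higher than at 0 h, Ermap and Icam4 (10.6% of all genes higher), and 1 was lower, Nfe2 (13.9% of all genes lower). All 3 are among the 20 members that passed on wild type alone. None of these calls held without wild type 0 h replicate 1, where the count was 0, and without wild type 1 h replicate 2 it was 1. With the replicate block the count was 10, with 7 higher (17.2% of all genes with the block) and 3 lower (26.1%).

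Later the wild type changes were mostly downward. At 3 h 7 members were lower (23.2% of all genes), at 6 h 13 (19.1% of all genes) and at 24 h 11 (20.2% of all genes), with 2 higher at 24 h, Icam4 and Abcb10 (23.6% of all genes). Of the 20 members that passed on wild type alone, 6, 10 and 8 were lower at 3, 6 and 24 h, and 2 were higher at 24 h. Over all members the share at 3 h lies near that of all genes. With the block 15 were called at 3 h, 12 lower (30.1% of all genes with the block) and 3 higher (28.8%). The 3 h count fell to 4 without wild type 0 h replicate 1. The 6 h count was 7 without wild type 0 h replicate 2 or wild type 6 h replicate 1, and 8 without wild type 6 h replicate 2. The 24 h count, 13 in both directions, was 8 without wild type 0 h replicate 2 and 7 without wild type 24 h replicate 1.

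Car1 had the deepest fall of any member in wild type cells. It went from 12.02 and 12.01 at 0 h to 9.85 and 9.76 at 3 h, then 8.32 and 8.04 at 6 h, then 6.47 and 6.91 at 24 h, a change of -5.32 ± 0.21 (adjusted p = 5.22e-11). Each of these pairs lies below the one before it. Car2 went from 9.55 and 9.66 to 7.78 and 7.28 at 24 h (-2.08 ± 0.19, adjusted p = 2.62e-07), and Rhag from 6.98 and 6.53 to 5.23 and 5.33 (-1.47 ± 0.31, adjusted p = 0.0012).

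The wild type change of Slc25a37 was most negative at 3 h, from 11.45 and 10.95 to 9.87 and 9.57 (-1.48 ± 0.18, adjusted p = 7.96e-06), with -1.15 ± 0.18 at 24 h. Nfe2 fell by 0.78 ± 0.12 at 24 h (8.03 and 8.11 to 7.34 and 7.24, adjusted p = 7.01e-05). Among the members not called in wild type cells at any time were Slc4a1, Sptb, Epb42, Add2, Rhd, Alas2, Gata1 and Hemgn. Over the 10 wild type arrays Epb42 had the narrowest range of these 8 genes, 6.29 to 6.63, and Slc4a1 the widest, 7.10 to 7.87. Epb42, Add2, Rhd, Alas2, Gata1 and Hemgn had 0 wild type arrays at the filter's threshold, so changes there may be understated.

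In TAK1-deleted cells most members fell from 3 h onward. At 1 h 0 of 34 were lower (10.2% of all genes; 2 members had an unadjusted p below 0.05) and 1 was higher, Abcb10 (9.1% of all genes), and with the replicate block 2 were higher (15.1% of all genes with the block) and 1 lower (21.2%). Without TAK1-deleted 1 h replicate 2 the count was 2. At 3 h 23 of 34 were lower (22.1% of all genes), at 6 h 26 (17.3% of all genes) and at 24 h 28 (12.7% of all genes), with 0 higher at these 3 times and an unadjusted p below 0.05 for 1 higher member at 3 h. That member, Abcb10, was called higher at 3 h with the replicate block (27.4% of all genes with the block). The counts over the 20 members that passed on wild type alone were 14, 14 and 17. These comparisons share the TAK1-deleted 0 h arrays with the genotype comparison at 0 h, so a high reading there enters both.

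Rhag fell from 10.27 and 9.67 to 8.97 and 7.97 at 3 h, then 7.32 and 6.95 at 6 h, then 5.65 and 5.34 at 24 h, a change of -4.47 ± 0.31 (adjusted p = 3.53e-08). Its last values lie just above the wild type arrays of that time (5.23 and 5.33). Car1 fell from 13.40 and 13.13 to 6.88 and 7.02 (-6.31 ± 0.21, adjusted p = 3.07e-11), the largest fitted change of any tested member in either genotype. The 24 h change was -3.86 ± 0.19 for Car2, -3.65 ± 0.23 for Cldn13, -3.17 ± 0.18 for Aqp1 and -3.01 ± 0.23 for Kel.

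Slc4a1 read 10.56 and 10.03 at 0 h, 9.84 and 9.17 at 3 h, then 9.34 and 9.17 at 6 h, then 7.81 and 7.72 at 24 h. Its change was -1.03 ± 0.22 at 6 h and -2.53 ± 0.22 at 24 h (adjusted p = 3.72e-07). Among the factors the 24 h change was -2.11 ± 0.17 for Gfi1b, -1.73 ± 0.20 for Klf1 and -1.64 ± 0.18 for Gata1, and it was -1.80 ± 0.17 for Epor. The members not called at 24 h were Icam4 (-0.06 ± 0.14), Slc25a38 (-0.15 ± 0.16), Abcb10 (-0.01 ± 0.17) and Tmcc2 (-0.03 ± 0.12), besides Trim10 and Tspan8, which were called without the filter (-0.74 ± 0.17 and -0.55 ± 0.09).

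In limma's fit on the filtered values, Abcb10 was the only member called higher than at 0 h in TAK1-deleted cells. It read 9.29 and 8.70 at 0 h and 10.09 and 9.77 at 1 h in TAK1-deleted cells, a rise of 0.93 ± 0.17 (adjusted p = 0.00103), and was back at 9.01 and 8.95 at 24 h. In wild type cells it read 8.25 and 8.12 at 0 h and 8.67 and 8.55 at 1 h (0.42 ± 0.17, adjusted p = 0.0905). The difference between these changes was 0.51 ± 0.25 and was not called (adjusted p = 1).

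**Figure D3:**
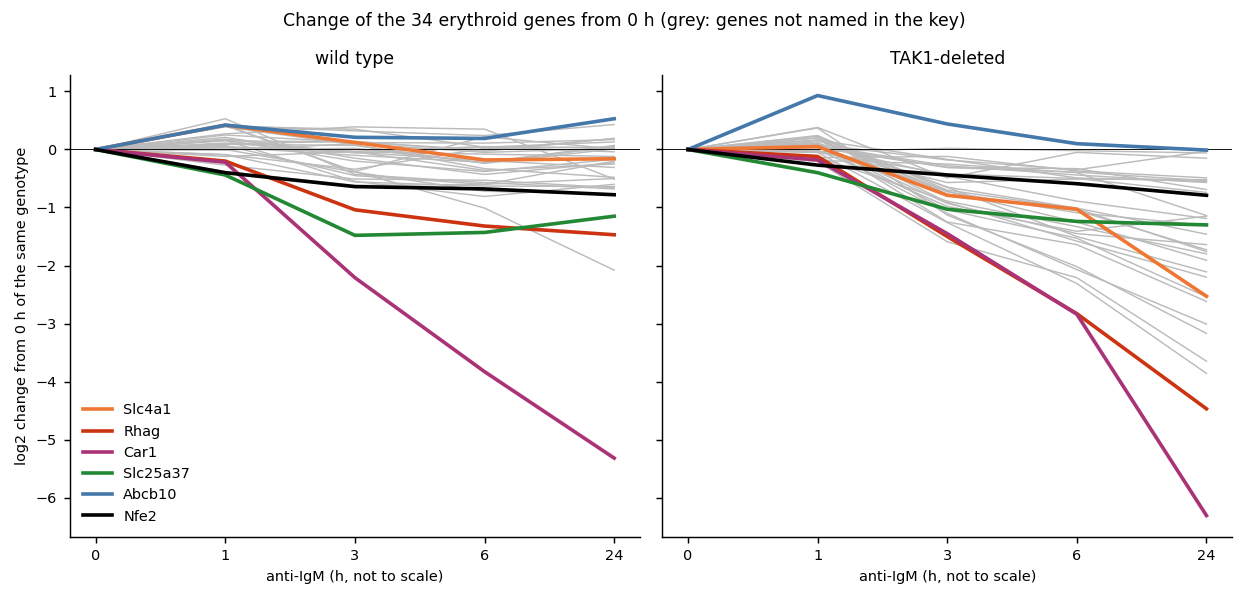
Log2 change from 0 h of the 34 members against hours of anti-IgM in wild type (left) and TAK1-deleted cells (right), with 6 members in colour or black and the others grey. Car1 has the deepest fall in both (-5.32 and -6.31 at 24 h), Abcb10 rises at 1 h in TAK1-deleted cells (0.93), and most grey lines run near 0 on the left and downward on the right.

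Whether the change from 0 h differed between the genotypes was tested as an interaction. At 1 h 0 members differed (0.109% of all genes had a more negative change in TAK1-deleted cells), with 1 at an unadjusted p below 0.05. At 3 h 0 differed (0.0585% of all genes, at the adjusted p). At an unadjusted p below 0.05 there were 15 members, of which 14 were more negative in TAK1-deleted cells. No share of all genes was computed at the unadjusted p. The replicate block called 3 (1.39% of all genes more negative with the block). At 6 h Add2 (-1.01 ± 0.18, adjusted p = 0.023) and Rhd (-1.45 ± 0.23, adjusted p = 0.0121) differed (0.192% of all genes). Both passed the filter only through TAK1-deleted arrays, and of the 20 members that passed on wild type alone 0 were called. Add2 was lost when any of the 8 arrays was left out and Rhd for 6 of the 8. With the block 18 were called at 6 h, 17 more negative in TAK1-deleted cells (4.64% of all genes with the block) and Car1 more positive (0.99 ± 0.30, with 1.81% of all genes).

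At 24 h the change was more negative in TAK1-deleted cells for 20 of 34 members (4.04% of all genes), and for 11 of the 20 that passed on wild type alone. Rhag, Cldn13, Kel, Rhd, Add2, Epb42, Gata1 and Hemgn had 0 wild type arrays at the filter's threshold. Their TAK1-deleted means at 24 h also lie under it. Falls may therefore be understated in either genotype, and the difference between the falls may be overstated or understated. The genotype difference at 24 h had an unfiltered median of 0.10 over the 34 members, so much of this test restates the difference at 0 h. Rhag had the largest difference, -3.00 ± 0.45 (adjusted p = 0.000502), from changes of -4.47 in TAK1-deleted and -1.47 in wild type cells. Cldn13 followed with -2.88 ± 0.33 and Aqp1 with -2.57 ± 0.26. By role the 20 were 8 of 10 membrane genes, 5 of 6 transport genes and 0 of 5 heme and iron genes. The rest were 5 of the 7 genes of factors and the receptor, and 2 of the 6 others. The 5 heme and iron genes gave values of -0.57 to -0.15, of which 0 passed the adjusted test and Fech and Abcb10 passed with the block. Dmtn, Klf1 and Tspan33 were lost without TAK1-deleted 0 h replicate 1, and with some other single arrays left out, at adjusted p of up to 0.139, 0.0527 and 0.115.

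Car1 was not called at 24 h in this test (-0.99 ± 0.30, adjusted p = 0.0554, and 0.00493 with the block). Nfe2 was the member whose changes lay closest between genotypes at 24 h, -0.78 in wild type and -0.79 in TAK1-deleted cells (difference -0.01 ± 0.17). Differences smaller than this standard error could not be resolved with 2 arrays a group.

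Genes of the same pathways that are not members were counted in the same way. At 0 h 1.5% of all tested genes were called higher and 0.819% lower. Of 6 tested heme synthesis enzymes 3 were higher in TAK1-deleted cells at 0 h: Cpox by 1.11 ± 0.17, Alad by 1.02 ± 0.13 and Urod by 0.58 ± 0.13, while Alas1, the enzyme of non-erythroid cells, gave 0.01 ± 0.20 (adjusted p = 0.999). Of 10 tested genes of iron uptake 3 were higher: the endosomal reductase Steap3 by 1.67 ± 0.16 and the transferrin receptors Tfr2 by 1.16 ± 0.15 and Tfrc by 1.06 ± 0.25. Of 15 other red cell membrane genes 5 were higher, among them Cd59a (1.32 ± 0.27) and the sphingosine 1-phosphate exporter Mfsd2b (1.26 ± 0.17). Of 15 late erythroid genes 4 were higher, with the red cell pyruvate kinase gene Pklr at 2.46 ± 0.20, and of 15 other erythroid transcription factors 1 was, Nfia (1.28 ± 0.16). In these 5 lists 0 genes were lower by limma, which is near the share of all genes called lower. Also at an unadjusted p below 0.05 0 were lower. The globin genes could not be described: 3 of 10 listed globin and chaperone genes had a probe set with 1 symbol, and 0 of the 3 passed the filter.

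Markers of other cells in the spleen did not all move the same way. Of all tested genes 1.5% were called higher at 0 h and 0.819% lower, so 0 called in a list is near those shares. At 0 h 0 of 17 macrophage genes and 0 of 9 platelet or megakaryocyte genes were called by limma (unadjusted p below 0.05 for 3 and 2 of them), and the summed linear level of the macrophage genes was 37300 and 39200 in wild type against 39500 and 35900 in TAK1-deleted arrays. Genes of progenitor and mast cells had 1 higher of 9, Mpo (1.81 ± 0.15), and 1 lower, Cpa3 (-0.74 ± 0.17). Neutrophil genes had 1 higher of 13, Elane (1.40 ± 0.27), and 1 lower, Retnlg (-1.05 ± 0.14). Dendritic cell genes had 1 higher of 9, Siglech (0.94 ± 0.19). Lower were 4 of 11 T cell genes (Cd3g, -1.14 ± 0.15), 7 of 10 NK cell genes (Klra8, -1.40 ± 0.23) and 3 of 7 plasma cell genes (Jchain, -5.31 ± 0.14), with 0 higher. Over the same arrays the summed linear level of the 34 members was 14700 and 13900 in wild type and 38800 and 31900 in TAK1-deleted cells. At 24 h it was 7660 and 7620 against 8490 and 8190. The part of these other cells in the members' difference was not tested.

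Genes of the cell cycle, which dividing precursors also use, were higher at 0 h in TAK1-deleted cells for 8 of 24 G2/M genes (Ccna2 by 1.28 ± 0.20) and 7 of 30 G1/S genes (Rrm2 by 1.04 ± 0.20), with 0 lower in either list (unadjusted p below 0.05 for 1 G2/M gene). Of all genes 1.5% were higher and 0.819% lower at 0 h, so 0 lower is near that share. The part of the cell cycle genes was not tested either. At 24 h both lists ran the other way, with 22 of 24 and 22 of 30 lower in TAK1-deleted cells (5.18% of all genes). The members had 0 lower, which is near the share of all genes.

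**Figure D4:**
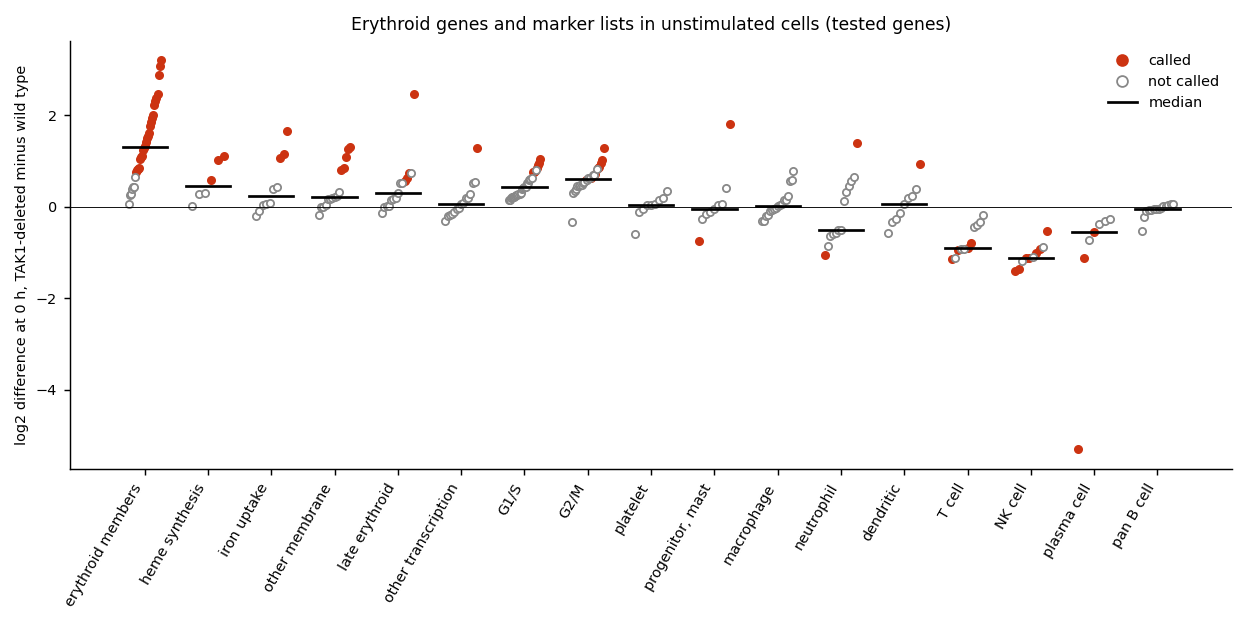
Log2 difference at 0 h (TAK1-deleted minus wild type) of each tested gene of the members and of the other lists, filled where called, with a bar at each list's median. The members' median is 1.32 over the 32 tested and that of the NK cell genes -1.12, and the lowest point is Jchain (-5.31).

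Within a genotype, members varied together to different degrees. The correlation of a member with the mean of the other members is a description over arrays that share genotype and time. Over the 10 TAK1-deleted arrays r was 0.99 or more for Ank1, Ermap, Kel, Rhd, Rhag, Aqp1, Klf1, Gfi1b and Cldn13, and 0.17 for Icam4. Over the 10 wild type arrays it ran from -0.33 for Abcb10 and -0.26 for Fech to 0.94 for Ermap and Aqp1.

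Of the tested genes that are not members, the 15 whose values followed the mean of the members most closely over the 20 arrays had r of 0.94 to 0.98. Pklr came first (r = 0.98), then Aldh1a1, a retinaldehyde dehydrogenase (r = 0.97), Slc25a21, Gstm5, Ces2g, Abcg4, Tfr2 and Abcb4. The others were Atp1b2, Tlcd4, Mfsd2b, Myh10, Samd14, Garem1 and Sec14l2. Tlcd4 had the largest difference at 0 h among them, 3.39 ± 0.39, from a wild type mean of 5.81 to 9.20. These r values run over both genotypes, so the difference between the genotypes is a large part of what they measure.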

How the data were processed

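The authors deposited log2 values for 35556 probe sets, between 3.64 and 14.68. Per the submitters' processing notes, RMA in Affymetrix Expression Console 1.0 produced them. A genome build for the probe sets is not given in the sources used here. GEO's platform annotation gives 21789 of them 1 gene symbol and 1621 several, and 12146 are unlisted. Only probe sets with 1 symbol were named, and the brightest stood for a gene. Each member had 1.

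Probe sets at 7.45 or more in at least 2 arrays were kept. A model of group means over all 20 arrays was fitted in R 4.3.3 by limma 3.58.1 (eBayes, intensity trend), with 17 contrasts and two-sided Benjamini-Hochberg adjusted p below 0.05 over 11968 genes. The procedure was tested on simulated data. Precision is limited by the number of arrays, with a median standard error of 0.161 for a difference.

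The labels number the replicates of every group. Arrays of the same number deviated together from their group means in 45 of 45 pairs of groups (r of 0.19 to 0.77, median 0.54). The numbers were taken to pair the samples only in the fit with a replicate block. The main fit, which gave the calls, leaves this pairing out. Over the members alone this r ran from -0.18 to 0.69. By median over members, replicate 1 was lower in wild type at 0 and 1 h (-0.11 and -0.17). In TAK1-deleted cells it was higher (0.26 and 0.25). A block by replicate number, shared by both genotypes, does not describe this for the members. The fit with this block was an alternative, beside filter, trend, normalization, probe set and array choices. The members and lists were chosen with earlier results of these data known. The rule for genes given with values in every array took those with the largest difference at 0 h in each role and any against the direction of most. Non-members were named from each list by size (up to 4), with the 15 most similar genes and the label checks. Promoter windows and gene names are from RefSeq tables.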

Additional observations from a re-analysis of the deposited data

Results flagged for a closer look

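In 22 cases the change from 0 h in a member differed between the genotypes by the interaction test of limma. With 2 arrays a group, single arrays far from their group could not be tested for. At 6 h these were Add2 (-1.01) and Rhd (-1.45), given as the change in TAK1-deleted minus that in wild type cells on the log2 scale. Neither passed the filter on wild type arrays alone. At 24 h the membrane genes were Slc4a1 (-2.37), Kel (-2.36), Ermap (-1.86), Ank1 (-1.69), Epb42 (-1.49), Sptb (-1.38), Add2 (-1.19) and Dmtn (-0.86). The transport genes were Rhag (-3.00), Aqp1 (-2.57), Rhd (-2.30), Slc38a5 (-2.03) and Car2 (-1.78). Among the factors and the receptor they were Hemgn (-1.71), Gfi1b (-1.64), Gata1 (-1.40), Klf1 (-1.23) and Epor (-1.14), and the others were Cldn13 (-2.88) and Tspan33 (-0.95). All 22 use the 0 h arrays of both genotypes, where these members were already higher in TAK1-deleted cells. For Cldn13 the adjusted p was 7.98e-05, for Rhd at 24 h 2.55e-05 and for Aqp1 2.46e-05.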

How the results depend on the processing

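Of the 219 calls of a member in a comparison 0 reversed under any alternative. The replicate block lost 0 of them, quantile normalization 2, no filter 8, a common median 10 and the fit on only the groups of a comparison 35. With 1 array left out, 182 of 964 pairs of a call and an array lost the call. Counts of members called moved by over 1.5 times in these cases. For wild type cells at 1 h (3 members) the count was 1 with no filter, 1 with a stricter filter, 6 with quantile normalization, 10 with the replicate block and 0 with only the groups compared. For wild type at 3 h (7) it was 15 with the block. For TAK1-deleted cells at 1 h (1) it was 3 with quantile normalization and 3 with the block. For the genotype difference at 3 h (19) it was 9 with only the groups compared, and at 24 h (1) it was 0 with a stricter filter and 3 with the block. For the difference in change at 3 h (0) it was 1 with quantile normalization and 3 with the block, and at 6 h (2) it was 15 and 18. The block moved no other count by over 1.5 times and, beyond calls that it added, changed no other call. The cause of these shifts was not tested.

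With each array left out the genotype count ran from 19 to 23 at 0 h, 22 to 24 at 1 h, 12 to 16 at 3 h, 7 to 8 at 6 h and 0 to 1 at 24 h. For wild type against 0 h it ran from 0 to 3, 4 to 8, 7 to 11 and 7 to 13 at 1, 3, 6 and 24 h, and for TAK1-deleted from 1 to 2, 18 to 24, 22 to 25 and 24 to 26. For the difference in change it ran from 0 to 0, 0 to 1, 0 to 3 and 17 to 21. A group left with 1 array was assumed to vary like the others. Dim probe sets limit the folds of members near background.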

Other observations

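Genes of neutrophils and macrophages differed at 24 h: 12 of 13 neutrophil genes and 13 of 17 macrophage genes were higher in TAK1-deleted cells, against 7.04% of all tested genes. At 0 h the median of the neutrophil genes was -0.51, with an unadjusted p below 0.05 for 5 higher and 7 lower. Mpo and Elane were the genes called higher at 0 h in the progenitor and mast cell list and the neutrophil list, and Cpa3 and Retnlg the genes called lower. Mpo, the myeloperoxidase of granule precursors, was higher in TAK1-deleted cells by 1.81 ± 0.15 at 0 h and by 2.23 ± 0.15 at 24 h (adjusted p = 2e-07, limma). Elane, the neutrophil elastase gene, was higher by 1.40 ± 0.27 at 0 h and by 1.68 ± 0.27 at 24 h (adjusted p = 0.000695). Tfrc, the transferrin receptor that dividing B cells also use, started 1.06 ± 0.25 higher in TAK1-deleted cells and rose by 3 h in wild type cells by 2.13 ± 0.25 and in TAK1-deleted cells by 1.00 ± 0.25. The difference between these rises, -1.14 ± 0.35, was not called by limma's interaction test (adjusted p = 0.448, and 0.0013 with the replicate block).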
